A study of Mus musculus with 7 samples.

Results

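At E14.5 (E, embryonic day), 256 germ cells of the fetal mouse ovary carried high Pou5f1 and little or no Stra8 messenger RNA. They were 256 of the 2251 germ cells without Wnt6 in the E14.5 library (11.4%, exact binomial 95% interval 10.1 to 12.8), and 2.24% of its 11417 cells. A cell entered the group when it had at least 1000 detected genes, at least 4 unique molecular identifiers (UMIs, each a counted RNA molecule) summed over Dazl, Ddx4, Pou5f1 and Utf1, Pou5f1 of at least 200 counts per 1000000 UMIs of the cell (CPM), Stra8 under 300 CPM, and no Wnt6 UMI. These cells are called Stra8-low below. Germ cells, here and below, are cells that meet the conditions on detected genes, the 4 summed germ cell genes and Wnt6. The 1917 of them in the same library with Stra8 of 300 CPM or more are called Stra8-high (85.2%). Another 78 were low for both genes and belonged to neither group. Without the Wnt6 condition, 299 cells were Stra8-low and 2180 Stra8-high. The values of Pou5f1, Utf1, Dazl, Ddx4, Stra8 and Wnt6 chose the cells, so those genes, and every other difference between the groups at E14.5, are given as descriptions without a test.

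The study sequenced droplet (10x Genomics) libraries of untreated C57BL/6J gonads or ovaries, 1 library at each of 7 ages from E11.5 to postnatal day (P) 5, 52542 cells in all. Cells of the E14.5 ovary were dissociated for 40 minutes and those of the E12.5 ovary for 20 minutes, and the gonads of an age were pooled. Because each age had 1 library, animals could not be told apart, no p-value was computed, and the intervals below cover counting error only. Levels are in CPM, here the UMIs of a gene summed over a group of cells per 1000000 UMIs of that group, with exact Poisson 95% intervals, and ratios of levels carry the exact 95% interval conditional on the summed UMIs.

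Primordial germ cells keep several genes of the pluripotent state, among them Pou5f1 and Nanog, while they divide by mitosis in the gonad. In the ovary they then stop dividing, copy their DNA once more and enter meiotic prophase. Retinoic acid and bone morphogenetic proteins (BMPs) are the known inducers of this step, Stra8 is its best known responding regulator, and its partner Meiosin is encoded by Gm4969. After entry, chromosomes are organised on axes of meiotic cohesin and then joined by the synaptonemal complex. Germ cells of 1 ovary do not take this step together, so cells on both sides of it can be caught at 1 age.

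Of the promoters of genes that separated the groups, 5 are printed. Those of Sycp1, Sycp3, Tex12 and Taf7l were picked to show a DNA word, the E-box CACGTG (a palindrome, so that both strands are read at once). Each window has 60 bases read 5′ to 3′ on the strand of the gene, from RefSeq on GRCm38.p6, and capitals mark every match. The windows are chr3:102936162-102936221 (minus strand) for Sycp1, chr10:88459496-88459555 (plus) for Sycp3, chr9:50561329-50561388 (minus) for Tex12 and chrX:134476507-134476566 (minus) for Taf7l. For Figla, chr6:86017074-86017133 (plus) is shown with a match to CNCCTCAG, a longer word searched on both strands.
Sycp1: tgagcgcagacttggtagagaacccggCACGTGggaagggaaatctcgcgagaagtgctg
Sycp3: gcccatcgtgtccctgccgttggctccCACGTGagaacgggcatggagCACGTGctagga
Tex12: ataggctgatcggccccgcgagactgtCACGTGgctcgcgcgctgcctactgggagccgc
Taf7l: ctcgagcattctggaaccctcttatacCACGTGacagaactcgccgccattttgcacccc
Figla: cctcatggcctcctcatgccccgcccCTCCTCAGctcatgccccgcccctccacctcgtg

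The match shown begins 94 bases before the annotated start in Sycp1, 93 in Tex12 and 49 in Taf7l. Of the 15 genes with the largest fold lower in Stra8-low cells, 14 had a promoter in the table. Over the 250 bases before the start, 3 of these held CACGTG (Sycp3, Tex12 and Taf7l, all printed) and 2 CNCCTCAG. CACGTG stood in 6 of the 10 promoters of the synaptonemal complex and axis list and in 6.86% of all 27025 promoters of the table. The 6 include Syce2 and Hormad1, which were not at least 2-fold lower. CNCCTCAG stood in 2 of those 10 and in 7.39% of all promoters. Of the 187 genes lower in Stra8-low cells, described below, 159 had a promoter in the table, of which 34 (21.4%) held CNCCTCAG and 15 (9.43%) CACGTG, beside 9.22% and 11.2% of the 4478 promoters of all genes tested. These are descriptions of letters, not of bound sites.

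The library behind these cells held 88627169 UMIs, with a median of 6251 per cell. Stra8-low cells had a median of 18186 UMIs (range 2045 to 50960) and 3788 genes, Stra8-high cells 12383 UMIs and 3284 genes, and the 5960 somatic cells of the library, taken as cells without a UMI of the 4 germ cell genes, 5913 UMIs. Mitochondrial UMIs were 2.90% of the total in Stra8-low and 2.70% in Stra8-high cells. Scrublet called 8 of the 256 Stra8-low cells doublets (3.12%) and 75 of the Stra8-high cells (3.91%), beside 3.54% of the 11060 cells with at least 200 genes. Of the 256 cell barcodes, 13 also occurred in another library, as did 468 of the 11417 barcodes of the whole library.

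**Figure D1:**
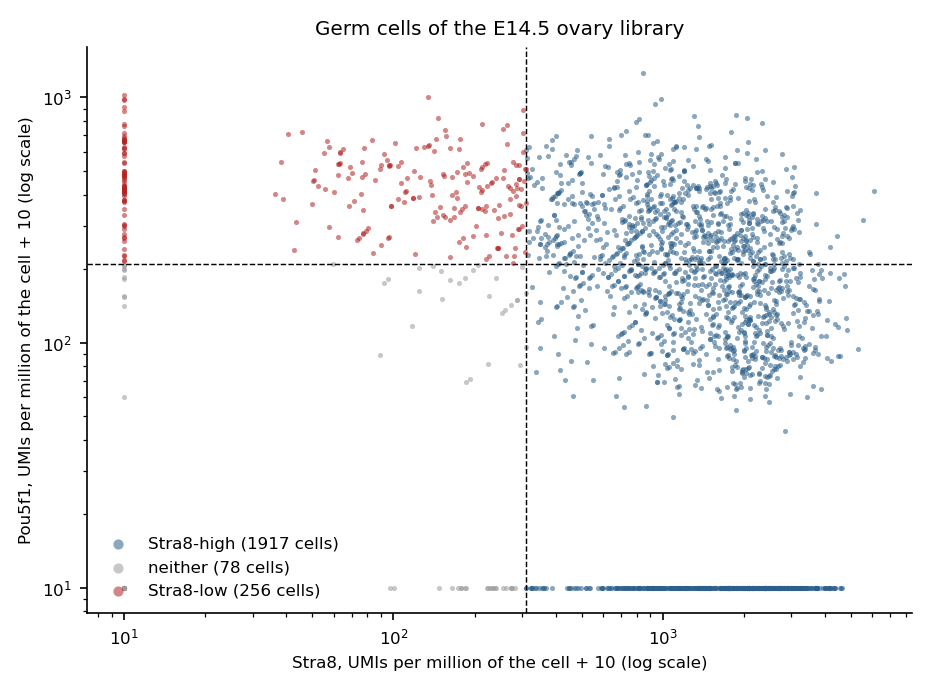
Each point is 1 germ cell of the E14.5 ovary, placed by its Stra8 (horizontal) and Pou5f1 (vertical) CPM with 10 added, on log axes, and the dashed lines mark the limits of 300 and 200. The 256 Stra8-low cells fill the upper left, 71 of them at 0 Stra8, and the cloud runs without a gap across the Stra8 limit into the 1917 Stra8-high cells.

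The limit on Stra8 divided a continuous range. Just inside it, 91 cells at 150 to under 300 CPM had summed levels of 400 CPM for Pou5f1, 1660 for Dppa5a, 98.7 for Sycp3 and 73.1 for Rec8. Just outside it, 82 cells at 300 to under 450 with the same Pou5f1 condition had 359, 1551, 124 and 77.7 for those genes. At the other limit, 23 cells with Pou5f1 of 200 to under 250 had a Utf1 level of 220 CPM, and 20 cells with 150 to under 200 had 208. Of the Stra8-high cells, 710 (37.0%) also had Pou5f1 of 200 CPM or more.

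Stra8 (ENSMUSG00000029848, chromosome 6, 34920163 to 34939344) was not absent from the group. Of the 256 cells, 71 had no Stra8 UMI, 63 had 1, and the highest cell had 10. The summed level was 112 CPM (103 to 122), compared with 1560 in Stra8-high cells, 17.9 in E12.5 germ cells chosen by the same rule and 12.1 in the somatic cells of the E14.5 library. After each cell was thinned to 5000 UMIs, which left 234 Stra8-low, 1791 Stra8-high and 4123 somatic cells, a Stra8 UMI was found in 45.3% of Stra8-low, 98.9% of Stra8-high and 5.46% of somatic cells. The group is therefore low for Stra8 rather than without it.

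Of the 4 genes given as marks of these cells, 3 were abundant in them. Pou5f1 (chromosome 17, 35506018 to 35510772), a transcription factor of pluripotent and germ cells, ranged over single cells from 201 to 1017 CPM with a median of 426. Utf1, a chromatin protein of undifferentiated cells, stood at 345 CPM in Stra8-low, 127 in Stra8-high and 460 in E12.5 cells. Dppa5a, an RNA-binding protein of pluripotent cells, stood at 1838, 950 and 2428 CPM in that order, and at 15.6 in somatic cells. Hist1h2ap, a replication-dependent H2A histone gene used as a mark of dividing cells, went against the label. Its level was 2.10 CPM in Stra8-low cells (interval given below), 3.77 in Stra8-high cells and 987 in E12.5 cells. The somatic cells gave 0.284 CPM at E14.5 and 642 at E12.5, so the near absence of Hist1h2ap was shared by the whole E14.5 library. Copies of this gene are near identical, and how reads were divided among them is uncertain.

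Apart from the erythroid list, at 3192 CPM and described with the haemoglobins below, markers of other cell types were low. The 12 supporting cell markers summed to 131 CPM in Stra8-low, 129 in Stra8-high and 3096 in somatic cells, and the largest of them was Gng13 (91.0 CPM, beside 787 in somatic cells). Wnt6 is one of the 12 and the rule sets it to 0, so this level was partly fixed by the choice of cells. Over the other 11 markers the somatic sum was 2778 CPM, and the 299 cells that meet the rule without the Wnt6 condition had 204 CPM, beside 202 in Stra8-high cells chosen the same way. Mesenchymal markers summed to 24.5 CPM (somatic 704), epithelial markers to 17.4 (somatic 117) and immune markers to 4.61 (somatic 57.9, with 5 of 8 at 0 in Stra8-low cells). The 6 endothelial markers summed to 74.8 CPM in Stra8-low, 29.4 in Stra8-high and 112 in somatic cells. Among them Pecam1, an adhesion molecule also known from early germ cells, gave 62.7, compared with 16.4 in Stra8-high and 11.9 in somatic cells. In Stra8-low cells Cldn5 gave 4.40, Kdr 0.838 and Cdh5 0.210. Genes of commitment to the male germ cell fate summed to 1.89 CPM, with 5 of 8 at 0, and 1 of the 256 cells carried a Y-linked UMI. Xist, the RNA of the silenced X chromosome, was 32.7 CPM in Stra8-low, 46.5 in Stra8-high and 2513 in somatic cells.

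Relative to Stra8-high cells, 73 of 5446 genes with at least 20 CPM in either group were at least 2-fold higher in Stra8-low cells (1.34%) and 187 were at least 2-fold lower (3.43%), with 10 CPM added to each level. The median log2 fold over all of these genes was -0.09. Pluripotency and germline genes, the mitotic cyclin Ccnb1 and a few other single genes stood among the higher ones, and genes of meiotic entry, the synaptonemal complex and recombination among the lower ones. Members of each list below are counted on this scale, and the rule used this contrast, so nothing is read from the counts beyond the description. A gene under 20 CPM in 1 group passes the filter through the other group only, so its direction is set by the filter.

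Pluripotency and primordial germ cell genes included several that were higher. Leaving out Pou5f1 and Utf1, 22 passed the filter on low levels, of which 9 were at least 2-fold higher, 0 lower and 13 neither, with a median log2 fold of 0.91. Among the 22, Nanog, Dppa2, Tfap2c, Prdm1, Tcl1 and L1td1 were under 20 CPM in Stra8-high cells. These passed through Stra8-low cells only, so their direction was fixed by the filter and no result is read from the count. Nanog (chromosome 6, 122707489 to 122714633), a core factor of pluripotency, was 21.6 CPM (17.6 to 26.2) in Stra8-low and 3.57 in Stra8-high cells. As a ratio of levels it was 6.05-fold higher (4.51 to 8.13), with a log2 fold of 1.22 with 10 CPM added. Its share of thinned cells with a UMI was 6.41%, 1.23% and 0.121% in Stra8-low, Stra8-high and somatic cells (30.1%, 4.02% and 0.235% without thinning). Nanog was thus detected in a minority of these cells at this depth, with a median cell at 0.

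Others of the list were more widely seen. Dppa2, a chromatin protein of pluripotent cells, was 54.1 CPM in Stra8-low and 16.6 in Stra8-high cells, and its partner Dppa4 was 132 and 60.2. Tfap2c, a transcription factor that specifies germ cells, was 63.7 and 19.8 CPM, and Prdm1, which acts with it, 25.6 and 10.3. Each of these was low in somatic cells, at 1.45 CPM or less. Dnd1, an RNA-binding protein needed for germ cell survival, was 193 and 84.9 CPM. Tcl1, a kinase co-activator of early embryonic cells, was 3.91-fold higher (3.33 to 4.58) and L1td1, an RNA-binding protein derived from a LINE-1 element, 4.38-fold higher (3.62 to 5.30). With 10 CPM added, their log2 folds were 1.45 and 1.41. Sox2, a factor of pluripotent cells, and Dppa3, which protects maternal methylation, were 1.72-fold and 1.84-fold higher, and Lin28b, a repressor of let-7 microRNAs, was 11.7 CPM against 16.6, the other way.

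**Figure D2:**
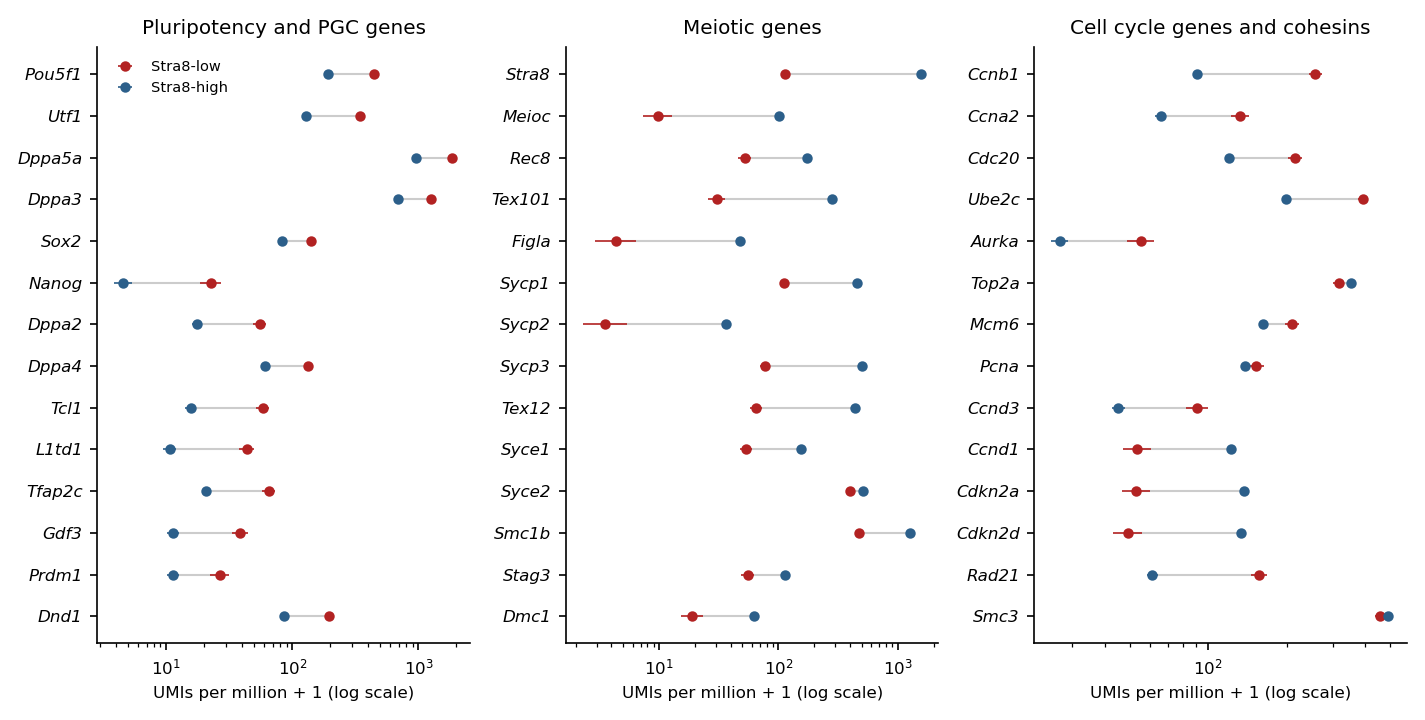
Levels of named genes in Stra8-low (red) and Stra8-high (blue) germ cells of the E14.5 ovary, in CPM with 1 added on a log axis, where bars are exact Poisson 95% intervals. The pluripotency genes drawn are all higher in Stra8-low cells, the meiotic genes drawn are all lower, and the cell cycle panel is divided, with Ccnb1 at 257 against 89.8 CPM and Cdkn2a at 52.0 against 137.

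Part of the list of meiotic entry regulators was lower in Stra8-low cells. Apart from Stra8 and Dazl, 7 passed the filter, of which 4 were at least 2-fold lower in Stra8-low cells and 0 higher, with a median log2 fold of -1.57. The 4 were Meioc, Rec8, Tex101 and Figla. Meioc and Figla were under 20 CPM in Stra8-low cells and passed the filter through Stra8-high cells only. Their direction was thus fixed by the filter. Meioc, which sustains the meiotic program by acting on RNA, was 8.80 CPM (6.35 to 11.9) in Stra8-low and 100 in Stra8-high cells. As a ratio of levels it was 11.4-fold lower (8.40 to 15.9), with a log2 fold of -2.55 with 10 CPM added. Tex101, a germ cell surface glycoprotein, was 29.3 and 278 CPM, and Figla, an oocyte transcription factor, 3.35 and 47.0. Gm4969 gave 0.838 CPM (0.228 to 2.15) in Stra8-low and 7.22 in Stra8-high cells, too few UMIs to enter the list count. Taf7l, an X-linked paralogue of a general transcription factor subunit, was 13.2 and 170 CPM, and was second after Stra8 in the order of folds. It too passed the filter through Stra8-high cells only.

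Rec8 (chromosome 14, 55618037 to 55625395), the meiotic cohesin subunit, was also found in somatic cells. Its level was 51.4 CPM (45.1 to 58.2) in Stra8-low, 172 in Stra8-high and 52.4 in somatic cells. A Rec8 UMI was found in 19.7% of thinned Stra8-low, 53.0% of Stra8-high and 20.8% of somatic cells, so neither level nor share in Stra8-low cells was above that of somatic cells. In somatic and Stra8-high cells Sycp1 was 3.33 and 453 CPM and Sycp3 6.27 and 497. The source of the Rec8 UMIs in somatic cells was not tested. Stra8-low cells without a Stra8 UMI gave 22.0 CPM (14.3 to 32.5), below the somatic level, and those with a Stra8 UMI 60.5 (52.8 to 69.0).

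Genes of the synaptonemal complex and chromosome axis were already present above the somatic level in Stra8-low cells, although at least 2-fold lower than in Stra8-high cells in 7 of the 10 that passed the filter (0 higher, median log2 fold -1.57). Sycp1 (chromosome 3, 102818499 to 102936100, the transverse filament) was 110 CPM (101 to 120) in Stra8-low, 453 in Stra8-high and 3.33 in somatic cells. Sycp3 (chromosome 10, 88459569 to 88473236, the lateral element) was 76.3 CPM (68.7 to 84.5), 497 and 6.27 in that order. Of the 256 Stra8-low cells, 83 had no Sycp3 UMI and 2 were at 500 CPM or more. A Sycp1 UMI was found in 41.9% of thinned Stra8-low, 80.7% of Stra8-high and 1.36% of somatic cells (68.8%, 94.3% and 2.05% without thinning).

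Members of this list differed among themselves. Sycp2, the partner of Sycp3 in the lateral element, was 2.52 CPM (1.30 to 4.39) in Stra8-low and 35.1 in Stra8-high cells, lower by 7.96 to 27.1 times as a ratio of levels (log2 fold -1.85 with 10 CPM added). Tex12, a central element protein, was 64.1 and 439 CPM, 6.85-fold lower (6.11 to 7.70, log2 fold -2.60 with 10 CPM added). Syce2, also of the central element, was nearly level, at 398 CPM (380 to 416) and 513. Sycp2, 1 of the 7 lower genes of the list, was under 20 CPM in Stra8-low cells and passed the filter through Stra8-high cells only. Its direction was thus fixed by the filter.

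Cohesins were mixed, with 1 higher and 2 lower of 7 and a median log2 fold of -0.10. Rad21 (chromosome 15, 51962240 to 51991747), the kleisin subunit of mitotic cells, was 156 CPM (145 to 168) in Stra8-low cells, 2.60-fold higher than in Stra8-high cells (2.38 to 2.85). Smc1b, the meiosis-specific SMC1 subunit, was 475 and 1271 CPM, 2.67-fold lower (2.56 to 2.79), and Stag3, another meiotic subunit, 54.3 and 112. Smc3, shared by both kinds of complex, was 456 and 489. Of 12 recombination genes 6 were at least 2-fold lower and 0 higher (median -1.04), among them the strand-exchange recombinase Dmc1 at 18.0 and 61.4 CPM and Tex15 at 25.4 and 138. Dmc1 was under 20 CPM in Stra8-low cells and passed the filter through Stra8-high cells only, so its direction was fixed by the filter.

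Genes of cell division pointed in more than 1 direction. The mitosis list summed to 4142 CPM in Stra8-low, 2966 in Stra8-high and 4782 in E12.5 cells, and of 27 genes 1 passed the 2-fold mark (median log2 fold 0.32). That gene was Ccnb1 (chromosome 13, 100778650 to 100786570), the cyclin of entry into mitosis, at 257 CPM (243 to 272) in Stra8-low, 89.8 in Stra8-high and 39.2 in somatic cells. Ccna2 was 132 and 64.8 CPM, Ube2c, which helps degrade mitotic cyclins, 392 and 198, and the mitotic kinase Aurka 54.1 and 25.9. Top2a and Mki67, other marks of cycling cells, were close to level, at 315 and 351 and at 35.6 and 29.0 CPM.

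DNA replication genes also stood nearly level, with 1 higher (Ung, a uracil glycosylase, at 180 and 84.1 CPM) and 1 lower (Ccne2, an S phase cyclin, at 8.80 and 56.5) of 25 and a median log2 fold of 0.13. Ccne2 passed the filter through Stra8-high cells only, so its direction was fixed by the filter. Of 7 histone cluster genes, 0 passed the mark in either direction (median -0.06). Of 9 G1 cyclins and kinase inhibitors, 3 were lower and 0 higher (median -0.21). These were Ccnd1 (52.2 and 121 CPM) and the inhibitors Cdkn2a (52.0 and 137) and Cdkn2d (48.2 and 133). Ccnd3, another D cyclin, ran the other way at 89.5 and 44.2 CPM.

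Genes that respond to BMP and retinoic acid were lower in part. Id1, a BMP target, was 147 CPM in Stra8-low, 313 in Stra8-high and 326 in somatic cells, and Msx1, a homeobox target of BMP, 26.6, 86.1 and 38.8. These were the 2 of 12 at least 2-fold lower, with 0 higher and a median log2 fold of -0.27. Msx2 (57.9 and 49.6 CPM) and Gata2 (55.3 and 57.7) stood nearly level between the germ cell groups and were at 6.84 and 3.30 in somatic cells. Both Id1 and Msx1 are also expressed by the somatic cells, whose level lay above that of the Stra8-low cells.

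Repressors of germline genes (the PRC1.6 and E2F6 complexes) were level, with 0 higher and 1 lower of 14 and a median log2 fold of -0.13. The lower gene was Setdb1, a histone H3 lysine 9 methyltransferase, at 35.2 and 82.0 CPM. Of 6 DNA methylation genes, 1 was higher, Tet1, which oxidises methylated cytosine, at 88.5 and 35.4 CPM (median 0.19). Of 12 germ granule and piRNA genes, 2 were lower and 0 higher (median -0.64), including Mael at 81.1 and 199 CPM. Oocyte transcription factors gave 0 higher and 1 lower of 4, adhesion and guidance receptors 0 and 0 of 4, and apoptosis genes 1 higher and 0 lower of 7. The lower oocyte factor was Figla, whose direction was fixed by the filter.

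Several single genes also had wide folds. Trp53, the p53 tumour suppressor and the higher gene of the apoptosis list, was 133 CPM (123 to 144) in Stra8-low and 40.9 in Stra8-high cells, 3.26-fold higher (2.95 to 3.60). Cox7b (X chromosome, 106015700 to 106022450), a subunit of cytochrome c oxidase in the mitochondrial respiratory chain, was 958 CPM (931 to 986) in Stra8-low, 303 in Stra8-high and 342 in somatic cells. Cox8a (chromosome 19, 7215153 to 7217616), another subunit, was 1049, 351 and 856 CPM. Of the 11 subunits listed, these 2 were at least 2-fold higher, and the list summed to 15900 CPM in Stra8-low and 15513 in Stra8-high cells. This list was added after values were seen, so nothing is read from that count.

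On the lower side, H2-K1, a class I histocompatibility gene, was 5.03 CPM (3.22 to 7.49) in Stra8-low, 85.2 in Stra8-high and 6.99 in somatic cells, and H2-D1 was 2.93, 50.5 and 8.95. Their partner B2m was 9.01, 21.2 and 106 CPM. All 3 were under 20 CPM in Stra8-low cells and passed the filter through Stra8-high cells only, so their direction was fixed by the filter. Dmrtc2, a DMRT family transcription factor, was 3.56 CPM in Stra8-low and 63.5 in Stra8-high cells, and Spdya, an atypical activator of cyclin-dependent kinases, 2.72 and 54.5. The X-linked Xlr4a and Xlr4b, relatives of the axis protein Sycp3, were 19.1 and 104 and 14.9 and 95.9 CPM. Both passed the filter through the Stra8-high level only, on a list added after values were seen, so no count of lower Xlr genes is read. Copies of the Xlr genes are near identical, and the division of reads among them is uncertain. On the X chromosome lay 22 of the 186 lower genes with a known position (11.8%), 3 of the 73 higher genes (4.11%) and 193 of the 5443 tested (3.55%), and the Xlr family is counted in the first.

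Haemoglobin transcripts came largely from single cells. Hba-x and Hbb-y, embryonic globins, stood 7.20-fold and 3.30-fold higher in Stra8-low than in Stra8-high cells, but 1 cell supplied 93.0% of the Hba-x UMIs and 1 cell 78.0% of the Hbb-y UMIs of the Stra8-low cells. Without cells over 1% haemoglobin (7 Stra8-low and 15 Stra8-high cells) the log2 fold was -0.15 for Hba-x and 0.03 for Hbb-y. The erythroid list summed to 3192 CPM in Stra8-low, 2183 in Stra8-high and 7649 in somatic cells.

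Levels were also set along Stra8. The Stra8-low cells were divided into those with Stra8 at 0 (71 cells) and above 0 and under 300 (185), and the Stra8-high cells into bins of 300 to under 1000 (577), 1000 to under 2000 (713) and 2000 and more (627). The first pair of bins thus required Pou5f1 of at least 200 CPM and left out the 78 germ cells in neither group, while the others had no condition on Pou5f1, so part of the step at 300 is set by the rule. In those 78 cells, with a median of 9087 UMIs, Sycp3 was 308 CPM, Ccnb1 216, Cox7b 704 and Nanog 15.5 (8.48 to 26.0), and the pluripotency list summed to 4023 CPM, compared with 6794 in Stra8-low cells. Along the 5 bins Nanog was 29.1, 19.2, 7.03, 2.38 and 1.21 CPM. Ccnb1 was 286, 248, 157, 81.0 and 26.4 CPM in the same order, and Cox7b 1022, 938, 566, 243 and 86.9. Each value was lower than the one before it, but the intervals of the first pair of bins overlapped for all 3 genes, as did those of the last pair for Nanog. The summed mitosis list went from 4209 to 2255 CPM between the first and last bins, while the DNA replication list was 2632, 2591, 2447, 2337 and 2636.

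Meiotic genes ran the opposite way. Sycp3 was 52.9, 83.6, 289, 501 and 724 CPM along the 5 bins, and Meioc 4.41, 10.2, 53.2, 107 and 144. The histocompatibility gene H2-K1 was 5.29, 4.95, 42.1, 77.2 and 143 CPM. For both Meioc and H2-K1 the intervals of the first pair of bins, which are the Stra8-low cells, overlapped, whereas Sycp1 was 69.7 (55.2 to 86.8) without a Stra8 UMI and 123 (112 to 135) with one. Within the Stra8-low group, cells with a Stra8 UMI were therefore 1.77-fold higher in Sycp1 (1.39 to 2.28) and 1.41-fold higher in Id1 (1.16 to 1.73). The median depth was 16221 UMIs in cells without a Stra8 UMI and 18545 in those with one, and its part in these ratios was not tested.

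**Figure D3:**
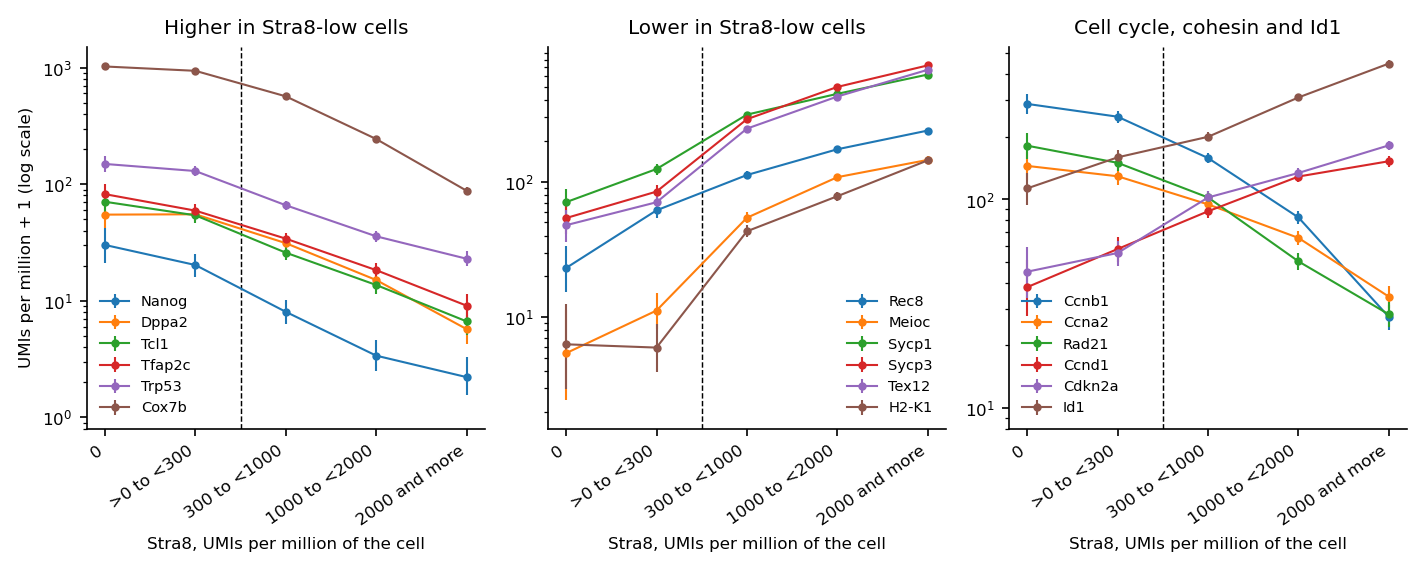
Levels of named genes in the Stra8-low and Stra8-high cells along 5 bins of Stra8 (the 78 germ cells in neither group are left out, and Pou5f1 of at least 200 CPM was required left of the dashed line only), in CPM with 1 added on a log axis that differs between panels, with exact Poisson 95% intervals, where the dashed line marks the limit between the groups. Genes of the left panel decline along Stra8 (Cox7b from 1022 to 86.9 CPM) and those of the middle panel climb (Sycp3 from 52.9 to 724). The right panel holds both kinds, Ccnb1 (286 to 26.4) and Id1 (112 to 446).

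The same rule applied to the other libraries asks how far these cells were from germ cells of younger gonads. It found 263 of 300 germ cells at E12.5 (87.7%) and 37 cells at E11.5. Among the older libraries it found 0 cells in the E16.5, 1 in the E18.5, 4 in the P1 and 12 in the P5 library. The E12.5 cells had a median of 23948 UMIs and 4422 genes, and 17 of them carried a Y-linked UMI, as did 240 of 3379 E12.5 somatic cells, in a library labelled ovary. Without the cells that carried one, 27 genes were higher and 64 lower in the comparison that follows. Genes of commitment to the male germ cell fate summed to 27.8 CPM (23.8 to 32.3) in the E12.5 cells, beside 1.89 in the Stra8-low cells, and their part in that comparison was not tested. Age, dissociation time and library differ together between the 2 ages and cannot be told apart.

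Of 5191 genes past the filter, 29 were at least 2-fold higher in the E14.5 Stra8-low cells than in the E12.5 cells (0.559%) and 66 were at least 2-fold lower (1.27%), with a median log2 fold of -0.02. With cells of both ages thinned to 5000 UMIs, 77 were higher and 106 lower. Here too a gene under 20 CPM at 1 age passed the filter through the other age only, so its direction was set by the filter. Among those named below, this holds for Rec8, Tex101, Ccnb1ip1, Msx1, Cited1, Ccnd1, Scand1, Hist1h2ap and Hist1h1e. The largest higher folds were those of the haemoglobins Hbb-bs and Hbb-bt (log2 fold 4.03 and 2.22, somatic cells 1.73 and 0.15). Of 7 erythroid genes 3 were higher and 2 lower. Supporting cell markers summed to 131 CPM in Stra8-low and 57.2 in E12.5 cells. The 1 of them that passed the filter, Gng13, was higher (log2 fold 1.24, somatic cells 2.97). Pou5f1 was 447 and 444 CPM at E14.5 and E12.5, a ratio of 1.01 (0.95 to 1.07) that the rule bears on. Of 25 other pluripotency and germ cell genes 0 were higher and 1 lower (median -0.17), the lower one being L1td1 at 42.3 and 152 CPM. Dppa3 was 1262 at E14.5 and 864 at E12.5, and Nanog 21.6 and 32.5. The pluripotency list, Pou5f1 and Utf1 included, summed to 6794 CPM in Stra8-low, 7382 in E12.5 and 3511 in Stra8-high cells.

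Several meiotic genes were higher than at E12.5, each still under the level of the Stra8-high cells. Besides Stra8 these were Sycp1 at 110 and 39.7 CPM, 2.79-fold (2.39 to 3.26), Tex12 at 64.1 and 24.5, and Tex101 at 29.3 and 7.48. Ccnb1ip1, a crossover factor, was 20.1 and 2.44 CPM, but the somatic cells also differed, at 29.7 and 0.689. Slc25a31, the germ cell ADP/ATP carrier, was 121 and 33.2 CPM, and Cited1, a transcriptional co-regulator, 45.7 and 10.2. Of the 5 meiotic entry regulators tested besides Stra8 and Dazl, which the rule uses, 2 were higher, Rec8 and Tex101, and 0 lower, while Ythdc2, Taf4b and Rbm46 were near level (median 0.05). Of 8 synaptonemal complex and axis genes 2 were higher and 0 lower (median 0.68), and of 8 recombination genes 1 and 0 (median 0.46). A Sycp1 UMI was found in 13.9% of thinned E12.5 cells, compared with 41.9% of Stra8-low cells.

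Rec8 was 51.4 CPM in Stra8-low and 17.6 in E12.5 cells, but the somatic cells also differed, at 52.4 and 23.6. Its log2 fold of 1.16 in the germ cells, with 10 CPM added, was 0.83 after thinning to 5000 UMIs, under the 2-fold mark. BMP and retinoic acid response genes gave 2 higher and 0 lower of 11 (median 0.56), namely Msx1 at 26.6 and 6.66 CPM and Id2 at 114 and 47.6. For Id2 the somatic cells differed the same way, at 758 and 323. Ccnd1 was 52.2 and 16.6 CPM in the germ cells and 25.8 and 86.9 in the somatic cells, the opposite order.

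The lower genes with the largest folds were Hist1h2ap, Scand1 and Hmgn5. Scand1 was 5.03 and 57.9 CPM in the germ cells and 16.3 and 141 in the somatic cells, lower at E14.5 in both. Of 9 histone cluster genes 4 were lower and 0 higher (median -0.75), Hist1h2ap from 987 CPM to 2.10 (1.01 to 3.85, 10 UMIs), with Hist1h1b at 29.8 and 123 CPM, Hist1h1e at 19.1 and 94.6 and Hist1h2ae at 21.4 and 66.1. The Hist1h2ap log2 fold was -6.36 with 10 CPM added and ran from -8.32 to -4.32 over the alternatives. In the somatic cells Hist1h1b, Hist1h1e and Hist1h2ae were also lower at E14.5, at 7.12 and 87.0, 6.91 and 73.1, and 9.67 and 98.7 CPM. Of 27 mitosis genes 3 were lower and 0 higher (median -0.14), with Mki67 at 35.6 and 165 CPM, Cenpf, a kinetochore protein, at 371 and 881, and Kif20b, a mitotic kinesin, at 52.4 and 121. Others lay the other way within 2-fold, such as Ccnb1 at 257 and 172 CPM and Cdc20, an activator of cyclin degradation, at 214 and 130. In the somatic cells Mki67 was 18.0 and 81.3 and Cenpf 46.0 and 189, also lower at E14.5. Hmgn5, a nucleosome-binding protein, was 63.7 and 314 CPM, with somatic cells at 73.8 and 66.4, and the chromatin remodeller Atrx 122 and 374, with somatic cells at 242 and 392.

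Hist1h2ap was set against its level in every library. In germ cells of the 7 libraries, in order of age, it was 151, 969, 3.43, 23.1, 164, 20.7 and 102 CPM. In somatic cells with at least 3 Top2a UMIs, a mark of dividing cells, it was 281, 2074, 1.61, 307, 1555, 695 and 815 CPM in the same order. E14.5 was the lowest library in both, while Top2a itself was 344 CPM in E14.5 germ cells. Of the 29 genes higher in the germ cells than at E12.5, 8 were also at least 2-fold higher in the somatic cells and 1 went the other way, and of the 66 lower genes 18 were also lower there and 0 went the other way. Over all 5191 genes tested, 1.18% were at least 2-fold higher and 1.19% at least 2-fold lower in the somatic cells. Of the 29 genes 10 lay under 20 CPM in both somatic groups, and of the 66 genes 8.

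**Figure D4:**
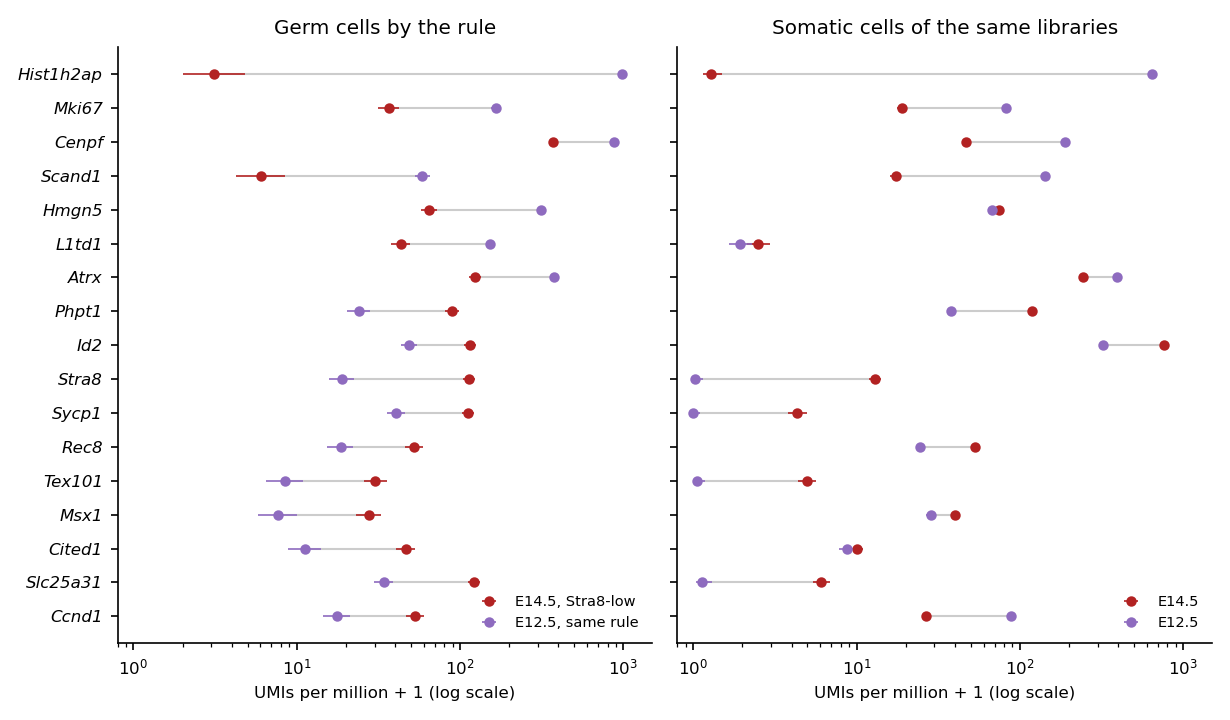
Levels in E14.5 (red) and E12.5 (violet) cells, in CPM with 1 added on a log axis with exact Poisson 95% intervals, for germ cells by the same rule (left) and somatic cells (right). Hist1h2ap, Mki67 and Cenpf are lower at E14.5 in both panels, Sycp1 is 110 against 39.7 CPM in germ cells, and Ccnd1 runs opposite ways in the panels.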

How the data were processed

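The deposited matrices hold raw UMI counts per gene and cell, which the authors made with Cell Ranger 3.1.0 on mm10 and filtered for cells. 31053 genes were read in 7 libraries of 1 age each. Cells were selected as stated, counts were summed over each group of cells, and levels were expressed per 1000000 UMIs (CPM). With 1 library per age no model or test was run, and exact 95% intervals cover counting error only. Folds were computed with 10 CPM added, for genes at 20 CPM or more in either group. Shares of cells were computed after thinning to 5000 UMIs. Doublets were kept and were called with Scrublet in scanpy 1.11.5 (30 components, numpy 2.4.6, scipy 1.17.1). The steps were tested on simulated data.

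The cells, 27 gene lists and comparisons were chosen with earlier results of these data known. A further 4 lists (cytochrome c oxidase, class I histocompatibility, Xlr and metallothionein genes) were added after values were seen. Named genes were those of the lists and the 15 with the largest fold in each direction of each comparison. Pou5f1, Utf1, Dazl, Ddx4, Stra8 and Wnt6 chose the cells. Promoter and gene positions came from RefSeq and the annotation of GRCm38.p6. Protein sequences, and comparisons of the other cell types for their own sake, were not used here.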

Additional observations from a re-analysis of the deposited data

How the results depend on the processing

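No paired analysis was possible because each age had 1 library and no sample of 1 age had a numbered partner. Under 20 alternatives, 11 of 1694 values of named folds and list medians changed sign from a fold of at least 2, all of Hba-x or Hbb-y, whose log2 folds were 2.01 and 1.63. They were -1.16 and -1.17 with Stra8 under 150 CPM, -0.63 and -0.16 with no Stra8 UMI, -0.46 and -0.43 with Pou5f1 of at least 400, -1.47 and -1.66 after thinning to 5000 UMIs, and -0.41 and -0.46 without Scrublet doublets, and Hba-x was -0.15 without cells over 1% haemoglobin UMIs, an alternative chosen after seeing the data. Of 34 folds and medians under 2, 7 had both signs over the alternatives, Hbb-bs (0.29, -1.29 to 1.11), Xist (-0.40, -0.88 to 0.37), Gata2 and the medians of the Rhox, adhesion, apoptosis and histone lists. The number of Stra8-low cells was 165 with Stra8 under 150, 395 under 600, 71 with no Stra8 UMI and 150 with Pou5f1 of at least 400. Higher and lower genes against Stra8-high cells were 154 and 296 with no Stra8 UMI, 139 and 361 with 1 CPM added, and 9 and 27 with 50 added. Against E12.5 cells they were 77 and 106 after thinning, 77 and 171 with 1 added, and 6 and 18 with 50 added. Of 59 named folds of at least 2, 36 were under 2 in at least 1 alternative. Most of these were under 2 only with 50 CPM added, which shrinks folds by construction. Those under 2 in another alternative were Dppa4, Id1, Mael, Hba-x and Hbb-y against Stra8-high cells and Rec8 against E12.5 cells. Why these changed was not tested. Depth limits genes under 20 CPM, of which Gm4969 is one.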

Other observations

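Rhox homeobox genes, an X-linked cluster of germline and placental transcription factors, were abundant in the Stra8-low cells. Rhox5 was 757 CPM in Stra8-low, 497 in Stra8-high and 732 in E12.5 cells, Rhox6 was 629, 341 and 579, and Rhox9 was 1025, 536 and 900, against 8.85 CPM or less in somatic cells. Rhox13 ran the other way, at 5.45 CPM in Stra8-low and 30.6 in Stra8-high cells, and was the 1 lower gene among the 6 of the list that passed the filter (0 higher, median log2 fold 0.17). Rhox13 passed through Stra8-high cells only, so its direction was fixed by the filter.

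Glycolysis genes gave 2 higher and 0 lower of 11 (median log2 fold 0.49), Eno1 at 143 CPM in Stra8-low and 59.0 in Stra8-high cells and Pgam1 at 166 and 73.1, with somatic cells at 281 and 305. The metallothionein Mt2, which binds zinc and copper, was 172 and 37.6 CPM, 4.56-fold higher (4.15 to 5.02), and was 236 in E12.5 cells, while Mt1 was 56.0 and 28.3, with somatic cells at 107 for Mt2 and 603 for Mt1. Khdc1a, a KH-domain gene, was 38.1 CPM in Stra8-low, 5.21 in Stra8-high and 0.155 in somatic cells, and Morc1, which represses transposons in male germ cells, 27.0 and 3.41 in Stra8-low and Stra8-high cells. X-linked UMIs other than Xist were 4.22 per 100 autosomal UMIs in Stra8-low, 4.47 in Stra8-high and 3.97 in somatic cells.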
